A study of Mus musculus with 8 samples.

Results

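The genes described here encode the proteins of the mitochondrial respiratory chain and of ATP synthase, measured in PD-1hi CD8 T cells of leukaemic mice with and without blockade of the interleukin 10 receptor (IL-10R). They were chosen by name: array rows with exactly 1 gene symbol beginning with Ndufa, Ndufb, Ndufc, Ndufs or Ndufv, with Uqcr, with Cox4 to Cox8 or with Atp5, plus Sdha to Sdhd, Cyc1 and Cycs. Pseudogene symbols were left out and the brightest row of each gene was kept. The rule found 89 members among the 22180 genes with a row of their own. Of these, 82 members were bright enough to be tested, as were 12019 genes in all. Complex I had 32 members (31 tested), complex II had 4, complex III had 8, complex IV had 19 (14 tested) and complex V, the ATP synthase, had 17 (16 tested). The dim members were Ndufs5, Atp5j2, Cox4i2, Cox7b2, Cox8b, Cox8c and Ndufa4l2; they are counted in the 89 and carry no test. Cycs, which encodes cytochrome c, made a class of its own. The prefix Ndufa also took in 8 genes beginning with Ndufaf, which encode factors that assemble complex I and are no subunits of it; they are described apart. Ndufa4 and Ndufa4l2, once counted with complex I, are placed with complex IV here.

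The 8 arrays (GeneChip Mouse Gene 2.0 ST) measured RNA of T cells sorted from spleen (lineage-negative TCRb+ CD8+ cells that were PD-1hi, CD127low and CD44int-hi), 4 of mice given an isotype control antibody and 4 of mice given an antibody that blocks IL-10R. All mice were female C57BL/6 (the strain label reads C56BL/6), and both groups carried transplanted leukaemia cells of Eµ-TCL1 mice, a model of chronic lymphocytic leukaemia in which a transgene acts in B cells, so no array came from a mouse without leukaemia. Antibody was given from week 3 after transplantation for 2 weeks, and spleens were taken at week 5; the age of the mice is not given. The labels do not say that each array held the cells of a separate mouse, so the p-values weigh only how far these arrays spread, which may in part be technical.

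The respiratory chain passes electrons from NADH (through complex I) and from succinate (through complex II) to ubiquinone, then through complex III, cytochrome c and complex IV to oxygen. Complexes I, III and IV pump protons across the inner mitochondrial membrane, and ATP synthase lets them flow back to make ATP. Nearly all subunits are encoded in the nucleus, while a few core subunits are encoded in mitochondrial DNA and are not analysed here. T cells raise both glycolysis and respiration when they are activated and divide, and T cells kept under chronic stimulation are known for poor mitochondrial function.

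Values are log2 expression values of the array, and every difference is anti-IL-10R minus isotype on that scale. Each row has its own probes, so the level of a gene is not compared with that of another gene. The T cell markers were bright on all arrays, with a mean over 8 genes (Cd3e, Cd8a and Pdcd1 among them) of 11.18 to 11.42 in isotype and 11.45 to 11.57 in anti-IL-10R arrays. Of these 8, limma called 0 (against 2.53% of all tested genes). At an unadjusted limma p below 0.05, 1 was lower and 5 were higher (against 8.53% and 11.5% of all tested genes). On every anti-IL-10R array 5 lay higher (Pdcd1, Cd8a, Cd8b1, Cd3e and Cd3g, against 9.32% of all tested genes). Cd2 lay lower on every one (-0.34 ± 0.10, against 5.99% of all tested genes), and Cd3d and Cd5 overlapped. B cell markers lay near the dim end in both groups, with means over 9 genes of 4.74 to 5.24 and 4.73 to 4.84, and only Cd79a and Cd79b of them were bright enough to be tested. Myeloid markers (10 genes, 4.75 to 5.39 and 4.88 to 5.05) and muscle markers (6 genes, 4.91 to 5.27 and 4.89 to 5.07) were as dim on average. Yet 5 of the 10 myeloid markers were bright enough to be tested, with Itgam the brightest (group means 6.28 and 6.54). So were 2 of the 6 muscle markers, Acta1 (6.67 and 6.63) and Mb (5.39 and 5.49). Of 8 erythroid markers 2 were matched and both were dim. Of 4 matched NK cell markers 2 were tested, Eomes (10.25 and 10.51) and Itga2 (6.90 and 6.55). The array of isotype replicate 1 stood apart from the rest: its correlation with the other arrays over all tested genes was 0.915 to 0.929, against 0.962 to 0.986 among the other 7. It was the lowest of the 8 arrays in 40 of the 82 tested members (48.8%, against 41.2% of all tested genes) and the highest in 11 (13.4%, against 16.3%). Results are therefore given with and without it.

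Transcripts of the respiratory chain and ATP synthase were a little lower after IL-10R blockade in most members, and no member passed the test. Of the 82 tested members, 67 (81.7%) had a difference below 0, against 45.3% of all tested genes, and the median difference was -0.14 against 0.03 over all tested genes. None of the 82 had an adjusted p below 0.05 in limma with Benjamini-Hochberg adjustment over 12019 genes, where 304 genes (2.53%) did, 1.3% lower and 1.23% higher. At an unadjusted limma p below 0.05 there were 17 members lower (20.7%, against 8.53% of all tested genes) and 0 higher (against 11.5%). In 14 members (17.1%, against 5.99%) every anti-IL-10R array lay below every isotype array, and in 0 members (against 9.32%) was it the other way round. The members share the same 8 arrays, so their differences are not independent of each other, and with RNA of a sorted population fewer cells of a type and less RNA per cell cannot be told apart.

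Without isotype replicate 1, 7 members were called lower (8.54%, against 5.9% of all tested genes) and 0 higher (against 3.35%). These were Cox6a1, Cyc1, Ndufa11, Ndufa12, Ndufaf4, Ndufc2 and Sdhd. The median difference was then -0.20, against -0.01 over all tested genes, 74 members (90.2%, against 51.1%) were lower, and 39 (47.6%, against 14.2%) had groups that did not overlap, all of them lower. Isotype replicate 2 lay at the other end: it was the highest of the 8 arrays in 53 members (64.6%, against 15.0% of all tested genes). Without it the median difference was -0.09, 57 members were lower and 0 were called. Without both arrays the median was -0.14, 68 members were lower and 0 were called. Leaving out any other single array also left 0 members called.

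Averaged over the members of a complex, the levels on each array showed which complexes the groups separated. The mean of the 16 tested ATP synthase genes was 9.40, 9.55, 9.44 and 9.49 on the isotype arrays 1 to 4 and 9.32, 9.33, 9.31 and 9.26 on the anti-IL-10R arrays 1 to 4, with no overlap. Atp5o and Atp5g1 raised that mean on isotype replicate 1, so its lack of overlap leaned on them. They measured 6.82 and 7.11 there, against 5.66 to 5.70 and 5.76 to 6.26 on the other isotype arrays. The 5 genes of the catalytic head, which include neither, averaged 9.33 there, below all anti-IL-10R arrays (9.41 to 9.49). The 4 tested small membrane subunits averaged 11.04 there, above all of those arrays (10.92 to 10.99). The mean of the 8 Ndufaf genes was 7.25, 7.58, 7.31 and 7.44 against 7.13, 7.20, 7.02 and 6.78, also with no overlap. For complex I (31 genes) it was 8.99, 9.41, 9.22 and 9.29 against 9.11, 9.18, 9.11 and 9.06. There isotype replicate 1 was the lowest of all 8 arrays and the other 3 isotype arrays lay above all anti-IL-10R arrays. The same order held for complex III (8 genes; 9.07, 9.63, 9.36 and 9.43 against 9.22, 9.28, 9.22 and 9.18) and complex II (4 genes; 8.28, 8.86, 8.70 and 8.74 against 8.52, 8.60, 8.61 and 8.37). In complex IV (14 genes) the isotype means were 9.39, 9.57, 9.50 and 9.46 and the anti-IL-10R means 9.34, 9.42, 9.40 and 9.31, so isotype replicate 1 lay among the anti-IL-10R arrays. These means weight each gene equally and carry no test.

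**Figure D1:**
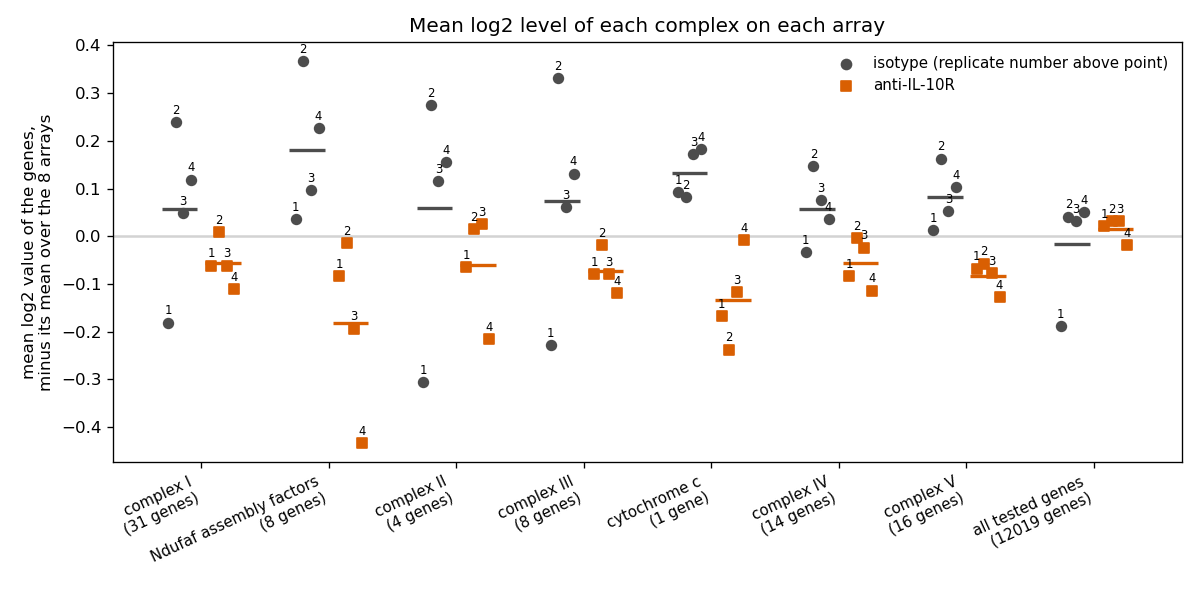
Mean log2 value of the tested genes of each complex on each array, minus its mean over the 8 arrays; points are arrays with their replicate number, horizontal lines are group means, and the last column shows all 12019 tested genes. The 4 anti-IL-10R arrays sit below all isotype arrays for complex V and the Ndufaf assembly factors (and for the single gene Cycs), while isotype replicate 1 falls to or below the anti-IL-10R arrays for complexes I to IV. For complex V, Atp5o and Atp5g1 raise the mean on isotype replicate 1.

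The members with the smallest p-values among the subunits were Ndufc2 and Cox6a1. Ndufc2, an accessory subunit in the membrane arm of complex I, measured 11.72, 11.64, 11.63 and 11.57 on the isotype arrays 1 to 4 and 11.25, 11.35, 11.31 and 11.16 on the anti-IL-10R arrays 1 to 4. Cox6a1, the widely expressed form of a small subunit of complex IV, measured 11.26, 11.20, 11.11 and 11.20 against 10.88, 10.85, 10.85 and 10.75. In both genes the groups stood clear of each other and the arrays within a group lay close together, isotype replicate 1 included. For Ndufc2 the difference was -0.37 ± 0.10 (SE, n = 4 and 4; limma adjusted p = 0.0763), a level of 0.772 times that of the isotype arrays with a 95% interval of 0.663 to 0.899. For Cox6a1 it was -0.36 ± 0.10 (limma adjusted p = 0.0772). Both narrowly missed the threshold; without isotype replicate 1 the differences were -0.35 and -0.34 with limma adjusted p-values of 0.0465 and 0.0459, and over the 8 ways of leaving out 1 array the adjusted p ranged from 0.0465 to 0.18 and from 0.0459 to 0.192. Cycs, the electron carrier between complexes III and IV, measured 11.63, 11.62, 11.71 and 11.72 against 11.37, 11.30, 11.42 and 11.53, again without overlap (-0.26 ± 0.10, limma adjusted p = 0.181). Of its 5 rows on the array, the other 4 had differences of -0.36, -0.36, -0.26 and -0.22, of which the first 2 held identical values and count as 1; Cycs has many near-identical pseudogenes, so which copy a row measures is uncertain.

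Promoters of genes of the respiratory chain are known to carry sites for NRF1, for GABP and other ETS factors, for CREB and for YY1. RefSeq promoters (GRCm38.p6, 250 bases before to 50 after a transcription start) were matched for 73 of the 89 members, 78 promoters in all, and compared with all 32851 promoters by exact search on both strands for 8 motifs. The NRF1 motif GCATGCGC was in 13 of the 78 member promoters (16.7%, against 2.71% of all promoters), the ETS motif CTTCCGG in 19 (24.4%, against 8.86%), the YY1 motif AAGATGG in 11 (14.1%, against 6.34%) and the CREB motif TGACGTCA in 4 (5.13%, against 1.79%). The E-box CACGTG was in 7 (8.97%, against 7.15%), GGGCGG of SP factors in 36 (46.2%, against 35.7%), CCAAT of NF-Y in 32 (41.0%, against 37.4%) and the ERR motif TCAAGGTCA in 2 (2.56%, against 0.423%). Overlap between different motifs was not removed. The 13 tested members with the NRF1 motif had a median difference of -0.18 (11 lower) and the 56 with a promoter but without it -0.12 (44 lower); for the ETS motif the medians were -0.15 (19 genes) and -0.14 (50 genes). A match is a description of the letters and was not tested as a binding site. Printed here are the 250 bases before the start of 4 members, chosen because Cox6a1 and Cycs were lower with an NRF1 motif, Ndufc2 was lower with neither an NRF1 nor an ETS motif, and Ndufa6 had an NRF1 motif and a difference above 0 (0.19 ± 0.12). Capitals mark NRF1, ETS and CREB motifs; matches to the other motifs are not marked.
Cox6a1 lies at chr5:115348959-115349208 on the minus strand, with overlapping NRF1 motifs on both strands that begin at -162 and -160 from the start and an ETS motif at -16.
Cox6a1: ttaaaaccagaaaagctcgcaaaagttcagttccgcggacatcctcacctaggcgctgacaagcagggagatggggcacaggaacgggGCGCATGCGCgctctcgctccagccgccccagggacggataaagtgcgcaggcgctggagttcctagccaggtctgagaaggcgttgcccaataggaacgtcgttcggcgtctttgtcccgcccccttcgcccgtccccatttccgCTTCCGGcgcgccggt
Cycs lies at chr6:50566570-50566819 on the minus strand, with a CREB motif at -169 and an NRF1 motif at -60.
Cycs: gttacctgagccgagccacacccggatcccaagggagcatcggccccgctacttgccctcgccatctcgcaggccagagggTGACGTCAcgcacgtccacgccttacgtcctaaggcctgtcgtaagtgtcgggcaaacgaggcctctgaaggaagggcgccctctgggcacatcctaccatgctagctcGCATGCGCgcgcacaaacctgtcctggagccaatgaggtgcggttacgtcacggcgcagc
Ndufa6 lies at chr15:82354292-82354541 on the minus strand, with an NRF1 motif at -83.
Ndufa6: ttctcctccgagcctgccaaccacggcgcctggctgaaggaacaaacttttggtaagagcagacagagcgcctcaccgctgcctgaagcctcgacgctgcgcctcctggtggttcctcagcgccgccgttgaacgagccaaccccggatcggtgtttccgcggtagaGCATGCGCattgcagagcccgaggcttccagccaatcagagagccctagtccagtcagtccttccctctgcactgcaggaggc
Ndufc2 lies at chr7:97399753-97400002 on the plus strand, with no NRF1, ETS or CREB match in the window.
Ndufc2: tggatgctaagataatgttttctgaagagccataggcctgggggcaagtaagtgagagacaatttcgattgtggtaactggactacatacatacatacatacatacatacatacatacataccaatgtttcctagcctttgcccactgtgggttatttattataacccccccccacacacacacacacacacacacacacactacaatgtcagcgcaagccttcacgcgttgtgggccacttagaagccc

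Complex I, which oxidises NADH, had 24 of 31 tested members below 0 and a median difference of -0.09, or -0.18 without isotype replicate 1 and -0.02 without isotype replicate 2. In 3 of the 31 (Ndufc2, Ndufs8 and Ndufa9) the groups did not overlap, all lower (9.68%, against 5.99% of all tested genes). The 6 core subunits, which carry the flavin, the iron-sulfur clusters or the ubiquinone site, had a median of -0.19 and the 25 accessory subunits one of -0.09 (-0.29 and -0.17 without that array). Ndufs8, a core iron-sulfur subunit, measured 8.54, 8.85, 8.45 and 8.71 against 8.33, 8.39, 8.35 and 8.12, with no overlap (-0.34 ± 0.12, limma adjusted p = 0.168). Ndufa9, an accessory subunit near the ubiquinone site, measured 10.31, 10.66, 10.30 and 10.50 against 9.93, 10.24, 10.20 and 10.06, also with no overlap (-0.34 ± 0.13, limma adjusted p = 0.177). Both lay above all anti-IL-10R arrays on isotype replicate 1 as well as on the other isotype arrays. Ndufa12, an accessory subunit of the arm that reaches into the matrix, measured 9.42, 9.66, 9.71 and 9.66 against 9.48, 9.24, 9.15 and 9.29. Its isotype replicate 1 lay below anti-IL-10R replicate 1, the other isotype arrays lay above all anti-IL-10R arrays, and the difference went from -0.32 ± 0.12 to -0.39 without that array (limma adjusted p = 0.164 and 0.0457). Ndufv1, the core subunit that binds NADH, was lower by the same pattern (9.02, 9.34, 9.36 and 9.25 against 8.89, 8.95, 8.94 and 9.13; -0.26 ± 0.12, limma adjusted p = 0.24, and 0.0582 without isotype replicate 1).

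Differences in complex I ran from -0.41 to 0.21. The lowest belonged to Ndufb11, a membrane arm subunit with a wide spread in both groups (6.49, 5.00, 5.56 and 5.64 against 5.18, 5.37, 5.78 and 4.73; -0.41 ± 0.31, or -0.14 without isotype replicate 1). Other members lay flat or had differences above 0. Ndufa6, an accessory subunit that binds the mitochondrial acyl carrier protein, measured 9.31, 9.60, 9.53 and 9.71 against 9.84, 9.79, 9.60 and 9.67, and its groups overlapped (0.19 ± 0.12, limma adjusted p = 0.421). Ndufs3, a core subunit, had a difference of 0.21 ± 0.21 that turned to -0.03 without isotype replicate 1, whose value of 6.87 lay well below the other isotype arrays (7.78 to 7.88). Ndufb10 (0.12), Ndufa8 (0.07) and Ndufa10 (0.04) also turned below 0 without it, to -0.12, -0.14 and -0.18, and of these isotype replicate 1 was the lowest array in each. Ndufa1, with values of 11.98 to 12.13 and 11.98 to 12.06, had a difference of -0.02 with a 95% interval of -0.23 to 0.19. The accessory subunit Ndufa11, singled out here after its values were seen, measured 8.63, 9.52, 9.09 and 9.23 against 8.74, 8.89, 8.74 and 8.83. The lowest of its 8 arrays was isotype replicate 1 and the other isotype arrays lay above all anti-IL-10R arrays, and the difference went from -0.32 ± 0.17 to -0.48 without that array (limma adjusted p = 0.349 and 0.0359).

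**Figure D2:**
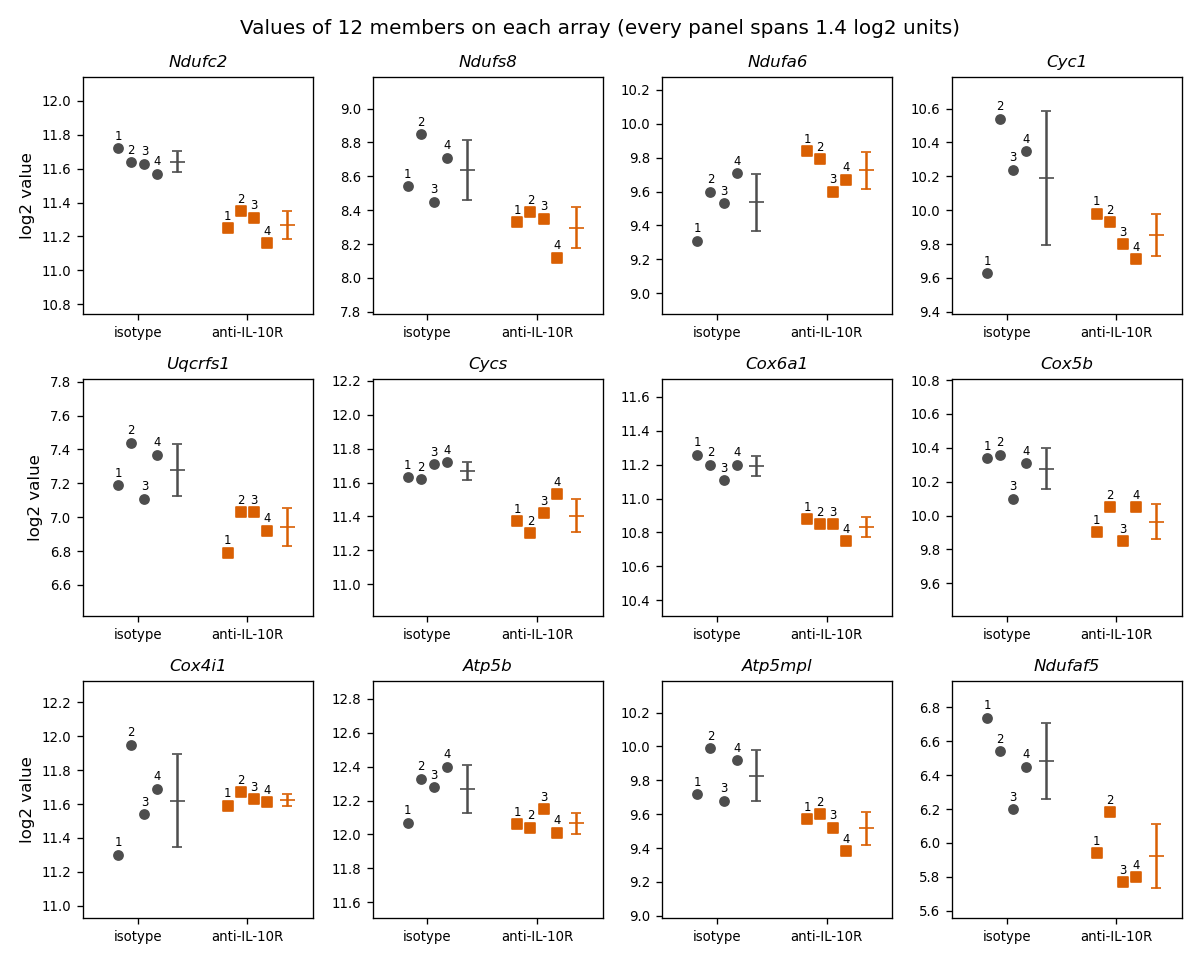
Log2 value of 12 members on each array, with the mean and SD of each group beside the points (n = 4 and 4); numbers are replicate numbers, each panel has its own level but the same span of the y axis, so heights of differences compare across panels. Ndufc2, Cox6a1, Cycs and Ndufaf5 separate the groups on all arrays, Cyc1 does so except for isotype replicate 1, and Cox4i1 and Ndufa6 overlap.

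The 8 Ndufaf genes, named here because the rule's prefix took them in and singled out after their values were seen, had a median difference of -0.42, with 7 of 8 below 0. Ndufaf5, an enzyme that modifies a core subunit of complex I during assembly, measured 6.74, 6.54, 6.20 and 6.45 against 5.94, 6.18, 5.77 and 5.80. The groups lay next to each other at isotype replicate 3 and anti-IL-10R replicate 2 but did not overlap (-0.56 ± 0.15, limma adjusted p = 0.0743, and 0.0536 without isotype replicate 1). Ndufaf7, a methyltransferase that acts on another core subunit, measured 9.41, 8.96, 8.92 and 8.80 against 8.60, 8.69, 8.47 and 7.85, with anti-IL-10R replicate 4 far below the rest (-0.62 ± 0.20, limma adjusted p = 0.127). Ndufaf6 measured 6.34, 7.34, 6.44 and 6.79 against 6.23, 5.98, 6.35 and 5.82, where only isotype replicate 1 and anti-IL-10R replicate 3 crossed (-0.64 ± 0.22, limma adjusted p = 0.151). Ndufaf1 (-0.46 ± 0.19), Ndufaf2 (-0.37 ± 0.15), Ndufaf4 (-0.32 ± 0.15) and Ndufaf8 (-0.15 ± 0.16) were lower in overlapping groups, and Ndufaf3, the partner of Ndufaf4, had a difference of 0.24 ± 0.16. Of these, Ndufaf4 was called without isotype replicate 1 (-0.44, limma adjusted p = 0.0461). Anti-IL-10R replicate 4 was the lowest array of the Ndufaf mean, and without it the median was -0.31. At an unadjusted limma p below 0.05, 5 of the 8 Ndufaf genes were lower (62.5%, against 8.53% of all tested genes) and 0 higher (against 11.5%). The 35 tested assembly factors for complexes I to V that lie outside the rule had a median of 0.02. Of these factors 15 were below 0 (42.9%, against 45.3% of all tested genes), 20 were above it and 0 were called. At an unadjusted limma p below 0.05, 1 of them was lower (2.86%, against 8.53%) and 2 were higher (against 11.5%). Without isotype replicate 1 their median was -0.17, and Coa7 and Sco1 were called lower (5.71%, near the 5.9% of all tested genes); over the arrays left out in turn the median ranged from -0.17 to 0.12. Coa7, an assembly factor of complex IV, came nearest to the threshold (-0.61 ± 0.14, limma adjusted p = 0.0505), while Uqcc1 of complex III (0.48 ± 0.18) and Surf1 of complex IV (0.47 ± 0.19) had differences above 0. Whether the Ndufaf genes differ from these factors was not tested.

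Complex II, succinate dehydrogenase, takes electrons from the citric acid cycle; 3 of its 4 members were below 0, with a median of -0.17 (-0.10 without isotype replicate 2). Sdhd, a membrane anchor, measured 7.42, 8.46, 8.12 and 8.33 against 7.68, 7.94, 7.87 and 7.81. Isotype replicate 1 was its lowest array and the other isotype arrays lay above all anti-IL-10R arrays; the difference was -0.26 ± 0.21 (limma adjusted p = 0.538), or -0.48 without that array (limma adjusted p = 0.0325). The other anchor, Sdhc, measured 6.50, 6.80, 6.43 and 6.50 against 6.44, 6.38, 6.45 and 6.22 (-0.18 ± 0.12), and the iron-sulfur subunit Sdhb 9.75, 10.10, 9.92 and 10.02 against 9.73, 9.80, 9.82 and 9.82 (-0.15 ± 0.11). Sdha, the flavoprotein, measured 9.48, 10.08, 10.32 and 10.11 against 10.22, 10.27, 10.30 and 9.63, with 1 low array in each group (0.11 ± 0.21, or -0.06 without isotype replicate 1).

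Complex III hands electrons from ubiquinone to cytochrome c; 6 of its 8 members were below 0, with a median of -0.14 (-0.26 without isotype replicate 1). Uqcrfs1, the Rieske iron-sulfur protein, measured 7.19, 7.44, 7.11 and 7.37 against 6.79, 7.03, 7.03 and 6.92, with no overlap (-0.34 ± 0.12, limma adjusted p = 0.151). Only this member of the 8 had no overlap (12.5%, against 5.99% of all tested genes). Cyc1, cytochrome c1, measured 9.63, 10.54, 10.24 and 10.35 against 9.98, 9.93, 9.80 and 9.71. Its isotype replicate 1 was the lowest of all 8 arrays while the other isotype arrays were the highest, so the difference of -0.34 ± 0.19 (limma adjusted p = 0.358) became -0.52 without that array (limma adjusted p = 0.0238), and ranged from -0.52 to -0.22 over the arrays left out in turn. The small subunit Uqcr11 measured 7.84, 8.32, 8.0 and 8.06 against 7.74, 7.96, 7.60 and 7.62, where isotype replicate 1 lay below anti-IL-10R replicate 2 (-0.32 ± 0.14, limma adjusted p = 0.225). The core protein Uqcrc1 had a difference of -0.16 ± 0.14 and its partner Uqcrc2 one of 0.01 ± 0.18, which became -0.27 and -0.17 without isotype replicate 1. Uqcrh, the hinge protein that holds cytochrome c1, had the highest difference of the complex, 0.18 ± 0.15 (0.06 without that array).

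Complex IV, cytochrome c oxidase, reduces oxygen to water; its catalytic core is encoded in mitochondrial DNA and the members here are the nuclear subunits around it. Of 14 tested members 11 were below 0, with a median of -0.10 (-0.06 without isotype replicate 3). Besides Cox6a1, Cox5b and Cox5a had groups that did not overlap, which makes 3 of the 14 lower without overlap (21.4%, against 5.99% of all tested genes). Cox5b, which binds zinc, measured 10.34, 10.36, 10.10 and 10.31 against 9.90, 10.05, 9.85 and 10.05 (-0.31 ± 0.11, limma adjusted p = 0.149). A dimmer second row of Cox5b also separated the groups, by -0.51 ± 0.10 (limma adjusted p = 0.0414 when adjusted over the rows). Cox5a measured 10.65, 10.82, 10.69 and 10.73 against 10.56, 10.55, 10.62 and 10.54 (-0.15 ± 0.09, limma adjusted p = 0.405). Cox7b measured 11.55, 11.03, 11.22 and 11.09 against 11.09, 10.86, 10.94 and 11.13; here isotype replicate 1 was the highest array, and the difference shrank from -0.22 ± 0.14 to -0.11 without it. The dimmer second row of Cox7b had a difference of -0.01 ± 0.22. Cox4i1, which takes part in sensing the level of ATP, measured 11.30, 11.95, 11.54 and 11.69 against 11.59, 11.67, 11.63 and 11.61, a difference of 0.00 ± 0.14 with the anti-IL-10R arrays inside the range of the isotype arrays. Cox7c (0.04 ± 0.22) and Cox8a (0.02 ± 0.12) had the highest differences of the complex, Cox6b1 and Cox7a2 both had -0.11 ± 0.11, and Ndufa4 had -0.10 ± 0.16.

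Several complex IV subunits have forms found mainly in muscle, lung or testis. Of 8 such genes, Cox4i2, Cox7b2, Cox8b, Cox8c and Ndufa4l2 were below the brightness limit of 5.24 on average, with values of 2.36 to 3.12 for Cox7b2 at the lowest and 4.94 to 5.54 for Cox4i2 at the highest. The 3 tested forms had a median difference of -0.05, against -0.11 for the 11 widely expressed subunits. Cox7a1, the muscle form beside Cox7a2, measured 5.80, 6.55, 7.25 and 6.86 against 6.35, 6.83, 6.64 and 6.06, a wide spread in both groups (-0.15 ± 0.29, or -0.42 without isotype replicate 1). Cox6a2, the muscle form beside Cox6a1, had a difference of -0.05 ± 0.16, and Cox6b2, the testis form beside Cox6b1, one of -0.04 ± 0.21; both turned above 0 without isotype replicate 1, to 0.07 and 0.16. The widely expressed partner Cox6a1 was lower by a similar amount with and without that array, as given above, and the difference between the forms was not tested.

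ATP synthase had 15 of 16 tested members below 0, a median of -0.14 (-0.09 without isotype replicate 2) and 4 members whose groups did not overlap (25%, against 5.99% of all tested genes): Atp5mpl, Atp5l, Atp5g2 and Atp5o. Atp5mpl and Atp5l are small membrane subunits at the base of the enzyme. Atp5mpl measured 9.72, 9.99, 9.68 and 9.92 against 9.57, 9.60, 9.52 and 9.38 (-0.31 ± 0.11, limma adjusted p = 0.169). Atp5l measured 12.59, 12.72, 12.62 and 12.63 against 12.52, 12.42, 12.40 and 12.50 (-0.18 ± 0.09, limma adjusted p = 0.34). In both, isotype replicate 1 lay above all anti-IL-10R arrays, as the other isotype arrays did. Atp5o, the subunit that joins the head to the outer stalk, measured 6.82, 5.70, 5.69 and 5.66 against 5.58, 5.58, 5.52 and 5.32. Isotype replicate 1 made most of its difference, which was -0.47 ± 0.25 with that array and -0.18 ± 0.10 without it. The other stalk subunits Atp5pb (-0.19 ± 0.11), Atp5h (-0.07 ± 0.19) and Atp5j (0.05 ± 0.12) had overlapping groups. A dimmer second row of Atp5h lay higher on every anti-IL-10R array (6.27 to 6.64) than on any isotype array (5.19 to 6.03), with a difference of 0.63 ± 0.19, so the rows of that gene disagree in sign.

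The catalytic head with its central shaft had all 5 members below 0, with a median of -0.12 (-0.25 without isotype replicate 1). Atp5b, the catalytic beta subunit, measured 12.07, 12.33, 12.28 and 12.40 against 12.06, 12.04, 12.15 and 12.01. Isotype replicate 1 lay among the anti-IL-10R arrays and the other isotype arrays above them (-0.21 ± 0.11, limma adjusted p = 0.324, and -0.28 without that array). Atp5a1, the alpha subunit, had a difference of -0.10 ± 0.15, and Atp5c1, Atp5d and Atp5e of the shaft had -0.11 ± 0.10, -0.12 ± 0.14 and -0.17 ± 0.15; a second row of Atp5d gave -0.55 ± 0.14 with no overlap. The c subunits of the rotating ring come from 3 genes whose products differ in the leader that targets them to mitochondria. Atp5g2 measured 9.99, 10.13, 9.95 and 9.97 against 9.85, 9.85, 9.85 and 9.89, a small difference without overlap (-0.15 ± 0.10, limma adjusted p = 0.418). Atp5g3 measured 8.91, 9.23, 9.30 and 9.29 against 9.04, 9.15, 9.11 and 9.03 (-0.10 ± 0.12). Atp5g1 measured 7.11, 5.77, 6.26 and 5.76 against 5.82, 5.92, 5.80 and 6.24; its difference of -0.28 ± 0.28 rested on isotype replicate 1 and was 0.02 without it.

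**Figure D3:**
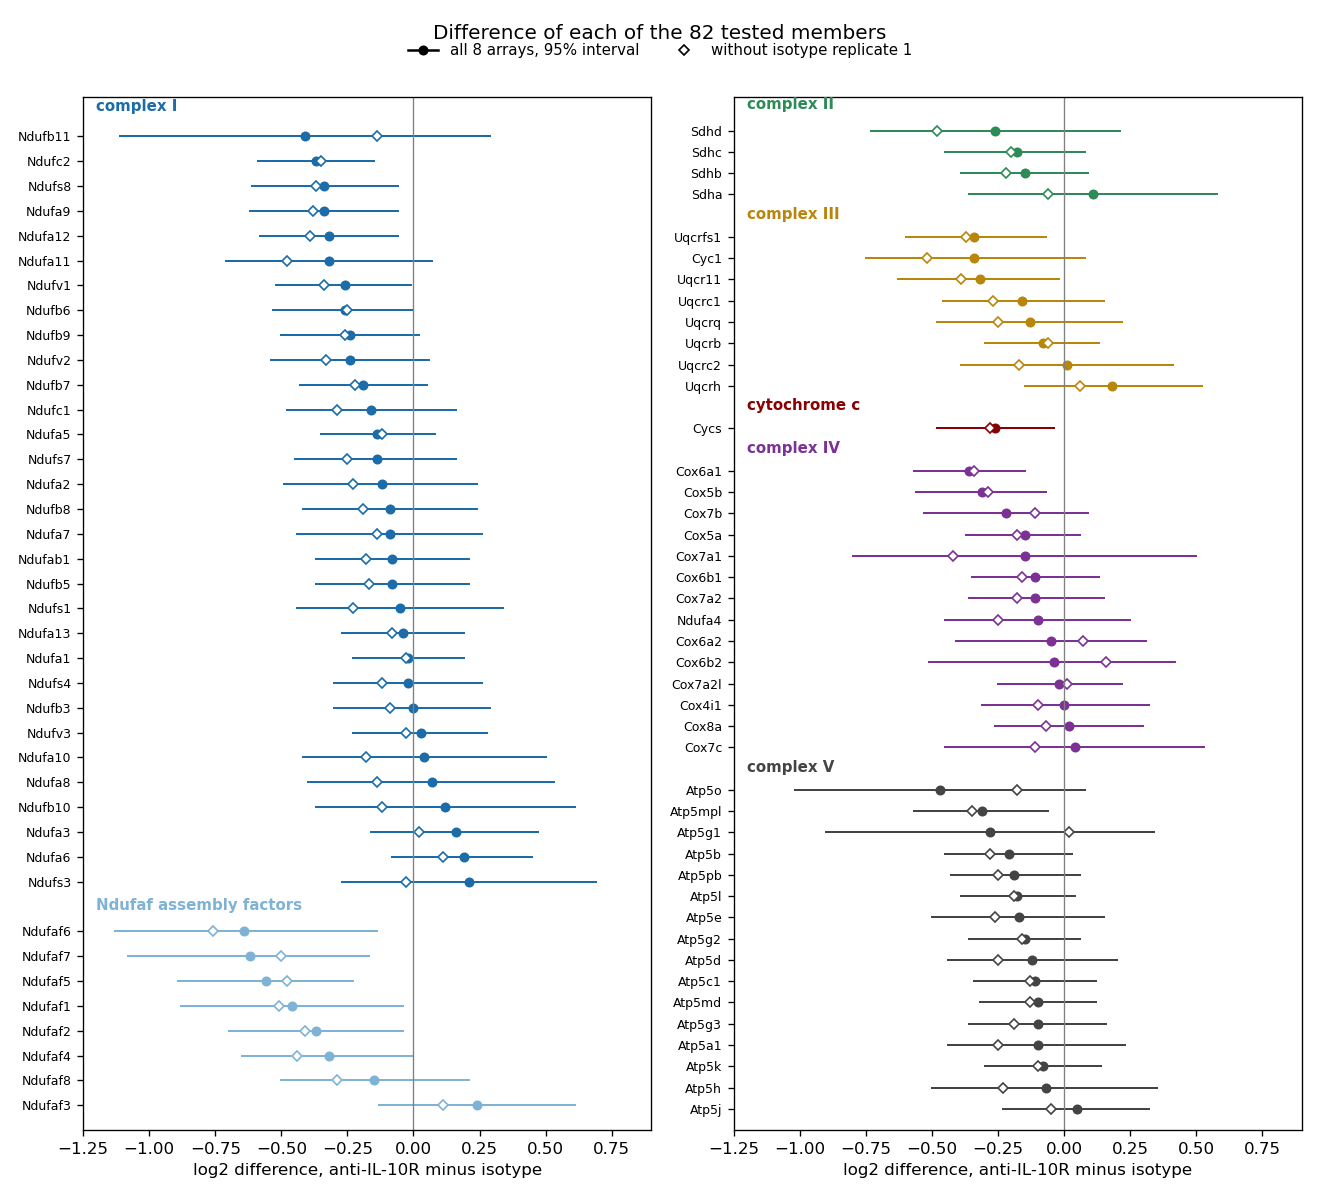
Difference (anti-IL-10R minus isotype, log2) of each of the 82 tested members by complex; filled circles with bars are the limma estimate and its 95% interval from 8 arrays, open diamonds the estimate without isotype replicate 1. Most points lie below 0 (67 of 82), and more do without that array (74 of 82); Atp5g1, Cox6a2 and Cox6b2 are among those that cross to above 0.

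On isotype replicate 2 most members of complex III (7 of 8) and complex I (22 of 31) had their highest value of the 8 arrays, against 3 of 8 Ndufaf genes. Over all tested genes isotype replicate 1 was brighter than the other isotype arrays among the dimmest genes only. From the lowest to the highest of 4 equal classes of brightness, the median of its difference from their mean was 0.12, -0.21, -0.36 and -0.29. The members lay mostly in that highest class (53 of 82), where their own median difference on that array was -0.27. Whether brightness accounts for the low values of the members on isotype replicate 1 was not tested.

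**Figure D4:**
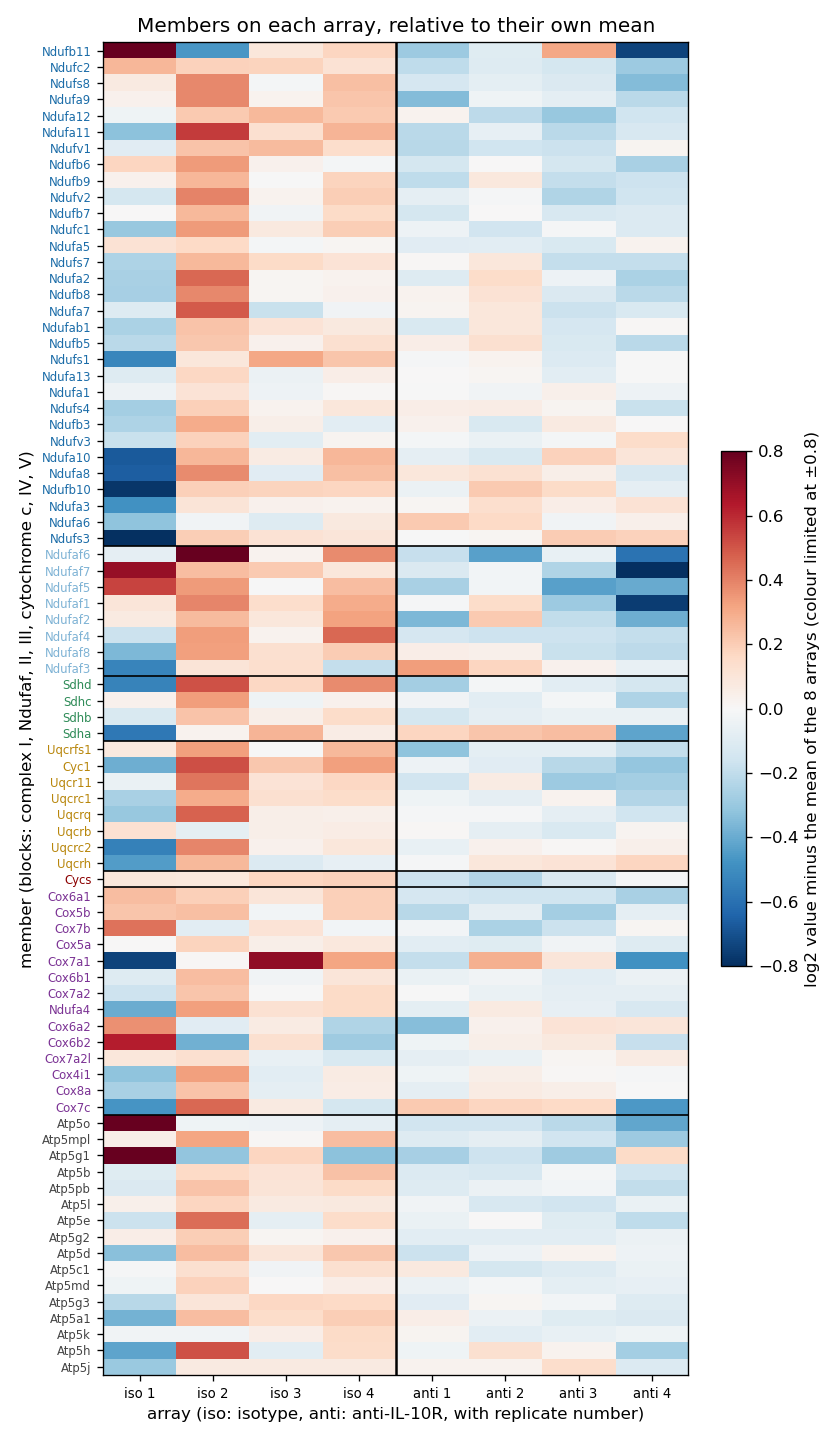
Log2 value of each tested member on each array minus the member's mean over the 8 arrays, in colour from blue (lower) to red (higher) and limited at 0.8 on either side, with members grouped by complex. Isotype replicate 2 is red for most members (the highest of the 8 arrays in 53 of 82), isotype replicate 1 is mixed (the lowest in 40 and the highest in 11), and the anti-IL-10R arrays are mostly pale blue.

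Genes that feed or surround the chain were read from the same test. Among 15 tested genes of ubiquinone synthesis and other electron donors, 2 fell and 0 rose (1.3% and 1.23% of all tested genes), and the median difference was 0.05, with 7 below 0. Without isotype replicate 1 the median turned to -0.08, 10 of 15 were below 0 and Etfb was called lower besides Coq7 and Coq3 (20.0%, against 5.9% of all tested genes). Coq7, which hydroxylates the ubiquinone precursor, measured 8.13, 8.32, 7.97 and 8.21 against 7.46, 7.56, 7.36 and 7.35, and changed by -0.72 ± 0.11 (limma adjusted p = 0.0227). Coq3, which methylates it, measured 7.25, 7.57, 7.40 and 7.70 against 6.93, 6.93, 6.63 and 6.27, and changed by -0.79 ± 0.17 (limma adjusted p = 0.0483). In both genes every anti-IL-10R array lay below every isotype array. With 1 array left out in turn, Coq7 stayed past the threshold without isotype replicate 1 or 3 (limma adjusted p = 0.00837 to 0.0941 over the 8 fits) and Coq3 without isotype replicate 1 (0.0164 to 0.142), and neither did without any other array. Pdss2, which makes the side chain of ubiquinone, had a difference above 0 in groups that did not overlap (0.55 ± 0.15, limma adjusted p = 0.0859).

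Of 16 tested citric acid cycle genes, 10 were below 0, with a median of -0.07 and 0 called (12.5% lower and 0 higher at an unadjusted limma p below 0.05, against 8.53% and 11.5% of all tested genes). The median was -0.19 without isotype replicate 1, where Fh1 was called lower (-0.53, limma adjusted p = 0.0203), and 0.01 without isotype replicate 2, where 7 were below 0 and 9 above. Without isotype replicate 3 it was 0.00, without isotype replicate 4 it was -0.01, and without anti-IL-10R replicate 1 or 4 it was -0.14 or -0.04. The lowest p-values belonged to Mdh2 (-0.32 ± 0.10, limma adjusted p = 0.125), Dlat (-0.34 ± 0.13) and Sucla2 (-0.30 ± 0.14), and in Mdh2, the malate dehydrogenase of mitochondria, the groups did not overlap (10.50 to 10.68 against 10.17 to 10.38). Of 16 tested genes of ATP export, uncoupling and cristae, 13 were below 0, with a median of -0.09 and 0 called (25% lower and 0 higher at an unadjusted limma p below 0.05, against 8.53% and 11.5%). The median was -0.17 without isotype replicate 1, where Slc25a5 was called lower (-0.36, limma adjusted p = 0.0423), -0.03 without isotype replicate 4 and -0.15 without anti-IL-10R replicate 2. Phb2, a prohibitin of the inner membrane, measured 10.34, 10.39, 10.32 and 10.32 against 10.03, 9.97, 10.01 and 10.10 (-0.31 ± 0.09, limma adjusted p = 0.0995). Vdac3, a pore of the outer membrane, had a difference of -0.34 ± 0.14 and Hccs, which attaches heme to cytochrome c, one of -0.26 ± 0.11. Of 14 tested regulators of mitochondrial genes, 8 were below 0, with a median of -0.03 and 0 called (21.4% lower and 0 higher at an unadjusted limma p below 0.05, against 8.53% and 11.5%). Without isotype replicate 1 the median was -0.18, 11 of 14 were below 0 and Myc was called lower (-0.66, limma adjusted p = 0.0296); without each other array it lay between -0.06 and 0.01. Myc measured 8.46, 8.78, 8.87 and 8.59 against 8.39, 8.11, 8.11 and 7.73 (-0.59 ± 0.16, limma adjusted p = 0.0799), and Tfam, which packs and transcribes mitochondrial DNA, and the coactivator Pprc1 had differences of -0.42 ± 0.15 and -0.34 ± 0.15. Nrf1, whose motif was searched above, had a difference of 0.04 ± 0.13 and Gabpa one of -0.04 ± 0.16.

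Markers of dividing cells were lower as well: the mean of 7 genes was 10.30 to 10.50 on the isotype arrays and 9.62 to 9.97 on the anti-IL-10R arrays. Their median difference was -0.67. Isotype replicate 1 had the lowest mean of the isotype arrays for the markers (10.30) and for the members (8.97, against 9.14 to 9.31). Its marker mean lay above all anti-IL-10R arrays, and its member mean lay among them (8.93 to 9.06). The group means lay further apart for the markers (-0.67) than for the members (-0.15). The mean of all tested genes was also lowest on that array (7.21, against 7.38 to 7.45 on the others). All 7 markers were below 0, against 45.3% of all tested genes. Of these markers 4 fell, against 1.3% of all tested genes: Plk1 (-0.84 ± 0.11, limma adjusted p = 0.0170), Rrm2 (-0.86 ± 0.15), Tyms (-0.79 ± 0.15) and Cdk1 (-0.67 ± 0.15). With any array other than isotype replicate 1 left out, 3 to 62 of all tested genes were called. The part of these markers in the lower values of the respiratory chain members was not tested. Rows that name a member together with another gene lay outside the rule, 10 in all. Among them, Uqcr10 with Gm6293 had a difference of -0.35 and Ndufs5 with its pseudogene -0.36. Ndufs1 with Ino80dos had 0.61 (values of 4.77 to 6.65), while the row of Ndufs1 alone had -0.05 ± 0.17. Uqcrb with Gm10767 had 0.82 on a dim row (3.87 to 5.65), while the bright row of Uqcrb alone (11.81 to 12.05) had -0.08 ± 0.10.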

How the data were processed

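RNA of sorted PD-1hi CD8 T cells was measured on 8 one-colour arrays, 4 per group. Per the submitters' processing notes the authors used Affymetrix Power Tools; the deposited table holds log2 values (1.57 to 13.89), as their range shows. Which version, probe summary and between-array normalization were used is not given in the sources used here, and probe detection was not used here. Symbols came from the platform annotation; 23521 of 41345 rows had exactly 1 symbol, 1814 had several and 16010 none. Of several rows of a gene, the one with the highest mean was kept. Genes with a mean below 5.24 (the median over row means) were left untested.

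Groups were compared with limma 3.58.1 in R 4.3.3 (lmFit, eBayes without trend, total degrees of freedom 9.59), two-sided, with Benjamini-Hochberg adjustment over all 12019 tested genes and a threshold of 0.05. Complexes and lists are described by counts and medians, with no test. The same fit on simulated arrays of 12019 genes recovered 71% of 2-fold and 95% of 4-fold changes, and 7.26% of its calls were false. The differences of the tested members ran from -0.64 to 0.24, all smaller than 2-fold. The simulation therefore does not say how many differences of that size would be called. The number of arrays limits the precision.

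The members and all lists were chosen with earlier results of these data known. The rule for named genes was the 5 members of each complex with the smallest p and the 2 with the most positive difference, Cycs, Cyc1, the restricted complex IV isoforms with their partners, the c subunit genes, and in each supporting list every called gene and the 3 with the smallest p; other names were added after their values were seen. Alternatives covered the filter, the scaling between arrays, the choice of row, the variance model, array weights, the replicate number as a block, and each array left out in turn; leaving out isotype replicates 1 and 2 together was added after seeing the data. Genes encoded in mitochondrial DNA are not analysed here.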

Additional observations from a re-analysis of the deposited data

Results flagged for a closer look

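In 8 of 124 groups of 4 arrays, 1 array lay far from the other 3, measured by its gap to the nearest array over the range of the group; chance gives about 1 in 20 such groups. Isotype replicate 1 was that array in 4 of the 8. The 124 groups did not cover every tested member. Isotype replicate 1 lay as far apart in members outside them, such as Ndufb10 (8.56, against 9.51 to 9.53 on the other isotype arrays). Ndufa3 (9.78, against 10.29 to 10.37) and Atp5a1 (10.99, against 11.51 to 11.61) were further such members. In the groups that were covered, the flagged genes were as follows. Atp5o measured 6.82 on isotype replicate 1 against 5.66 to 5.70 on the other isotype arrays, and Cox4i2, below the brightness limit, measured 5.54 against 5.20 to 5.26. On the same array Ndufs3 measured 6.87 against 7.78 to 7.88, and Atp5j measured 6.11 against 6.48 on each of the others. Anti-IL-10R replicate 4 stood apart in 3 genes: Sdha measured 9.63 there against 10.22 to 10.30, Cox7c measured 6.47 against 7.09 to 7.14, and Atp5g2 measured 9.89 against 9.85, a gap that is small in size. On anti-IL-10R replicate 1, Cox6a2 measured 5.30 against 5.68 to 5.75.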

How the results depend on the processing

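Of 1092 recomputed differences of named genes, 1004 kept their direction and side of the threshold, 38 newly passed it, 17 no longer did (all of them Coq3 or Coq7) and 33 changed sign; the cause was not tested. Over all genes 304 were called (51.3% of them lower). This became 896 at an adjusted p below 0.10, 145 with no filter on dim genes (fewer pass when more are tested), 460 with a stricter filter, 631 after quantile normalization (67.7% lower), 526 with arrays centred on their median, 1469 with array weights and 443 without isotype replicates 1 and 2. Leaving out 1 array gave 3 to 1112. Members called, 0 in the reported fit, were 3 at an adjusted p below 0.10, 2 (Cox6a1 and Ndufc2) with the stricter filter, with quantile normalization and with trended and robust variance, 11 with array weights, and 0 to 7 with 1 array left out. The median of the regulators ranged from -0.18 to 0.01 with 1 array left out. Quantile normalization put 56.1% of all genes below 0 (45.3% as reported), with a member median of -0.20.

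Arrays with the same replicate number deviated together weakly (correlations of -0.05, 0.12, 0.02 and -0.16). With so few arrays this cannot decide whether the numbers pair the arrays, and the labels do not say. With the replicate number as a block, 4 genes and 0 members were called, and the member median was -0.14.

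None of the differences that changed sign was called. With 1 array left out they ranged from -0.43 to 0.02 for Atp5g1, from -0.23 to 0.08 for Atp5h, from -0.05 to 0.09 for Atp5j, from -0.14 to 0.07 for Cox6a2, from -0.18 to 0.16 for Cox6b2 and from -0.42 to 0.07 for Cox7a1. The ranges were -0.11 to 0.20 for Cox7c, -0.07 to 0.10 for Cox8a, -0.03 to 0.31 for Ndufs3, -0.06 to 0.27 for Sdha and -0.17 to 0.14 for Uqcrc2. Without isotype replicates 1 and 2 the differences were -0.04 for Atp5j, 0.06 for Cox6a2, 0.06 for Cox6b2, -0.11 for Sdha and -0.06 for Uqcrc2. With array weights they were -0.01 for Atp5j, 0.07 for Cox6a2, 0.17 for Cox6b2, -0.05 for Cox8a and -0.14 for Uqcrc2. Quantile normalization gave -0.03 for Atp5j, -0.04 for Cox7c, -0.04 for Cox8a and -0.05 for Uqcrc2, and centring -0.02 for Cox8a and -0.03 for Uqcrc2. The mean of all rows gave 0.28 for Atp5h.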
